A study of Homo sapiens with 6 samples.

Results

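The RNA levels of 9 genes for immune checkpoint ligands and enzymes that tumor cells can carry were read in 6 libraries of 2 bladder cancer cell lines. The genes were taken by name (CD274, PDCD1LG2, CD276, VTCN1, CD47, PVR, LGALS9, NT5E and IDO1), and each of the 9 had 1 row among the 50868 gene rows with values. UM-UC-3 and 5637 are established human bladder cancer lines, grown in different media (DMEM and RPMI). Cells of either line had been infected with a lentivirus and selected with puromycin so that they stably expressed a control hairpin (sh-NC) or 1 of 2 hairpins against the long noncoding RNA LNMAT1 (sh-LNMAT1#1 and sh-LNMAT1#2), and there was 1 library for each construct in each line. The study asked which genes depend on LNMAT1, a transcript it links to spread of bladder cancer to the lymph nodes. All cells, the controls included, carried a lentiviral hairpin and had gone through selection, and the labels name no separate cultures, so p-values measure the spread between these libraries only.

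Immune checkpoints are receptors and ligands that restrain T cells, natural killer cells and macrophages. CD274 (PD-L1) and PDCD1LG2 (PD-L2) bind PD-1 on T cells, and interferon gamma, through the kinases JAK1 and JAK2 and the factor IRF1, is the best known inducer of CD274. Other members work outside this axis, through other surface receptors or by making inhibitory metabolites from ATP or tryptophan. PD-L1 on tumor cells is a target of antibody treatment in bladder cancer. The measurements here are of RNA in cultured cells with no immune cells added, and say nothing of the protein at the cell surface.

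The promoter window of CD274 is shown because its letters hold motifs of the interferon and NF-kB pathways that are known to induce it, and that of PVR beside it as an expressed member with no match. The windows are the RefSeq bases before the transcription start on GRCh38.p14, printed 5′ to 3′ up to the first base of the gene in GENCODE release 29, on chr9:5450292-5450502 for CD274 and chr19:44643660-44643797 for PVR, both on the plus strand. Capitals mark matches to the motifs searched.
CD274: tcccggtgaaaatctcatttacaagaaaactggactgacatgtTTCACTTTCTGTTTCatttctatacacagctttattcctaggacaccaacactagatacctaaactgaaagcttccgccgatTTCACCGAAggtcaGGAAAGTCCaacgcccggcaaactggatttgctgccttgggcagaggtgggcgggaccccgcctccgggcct
PVR: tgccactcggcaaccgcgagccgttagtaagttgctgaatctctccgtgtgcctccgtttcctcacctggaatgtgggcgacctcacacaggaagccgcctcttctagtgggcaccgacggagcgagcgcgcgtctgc
The letters GAAANNGAA, as in interferon-stimulated response elements, matched at 2 overlapping places in the CD274 window, both on the opposite strand (the first run of capitals). TTCNNNGAA, as in gamma-activated sequences, matched at 1 place there (the second run), and this motif reads the same on both strands. GGANTTTCC, as in NF-kB sites, also matched at 1 place, on the opposite strand (the third run), and no match of one motif overlapped one of another. Of 35116 RefSeq promoter windows, taken as the 250 bases before the start and searched on both strands, 6.88% held the first motif, 6.57% the second and 1.45% the third. RefSeq windows were at hand for 7 of the 9 members. PDCD1LG2 and IDO1 had none and were not searched, so nothing is said of their motifs. CD274 was the 1 of 7 with the first motif and the 1 with the second, and CD274 and VTCN1 were the 2 with the third. The motif forms were shortened by a letter after a first search, in which the longer form of the first again matched in CD274 alone and the longer and stricter form of the third matched in no member. A match describes letters only and was not tested as a binding site.

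The library labelled 5637 sh-NC stood apart from its line. Over the 12717 genes whose mean reached 1 FPKM, its log2 values correlated with those of the UM-UC-3 libraries at r between 0.922 and 0.985 and with those of the other two 5637 libraries at 0.617 and 0.622, a description across genes. The closest of all pairs of libraries was this one and UM-UC-3 sh-LNMAT1#1. Markers of epithelial cells, 6 genes, summed to 534 and 721 FPKM in the 5637 sh-LNMAT1 libraries, to 20.5 to 30.0 FPKM in UM-UC-3 and to 26.1 FPKM in the library labelled 5637 sh-NC. Of 6 leukocyte markers none reached 1 FPKM in any library, and of 5 fibroblast markers only COL1A1 did, in the 5637 sh-LNMAT1 libraries. LNMAT1 itself, listed as LINC01296 (ENSG00000244306, chromosome 14, 19284653 to 19337730), had 14.2 FPKM in UM-UC-3 sh-NC, 6.20 with sh-LNMAT1#1 and 6.70 with sh-LNMAT1#2, and 11.7, 4.70 and 2.14 FPKM in the 5637 libraries labelled with these constructs in that order. Every comparison of a hairpin against LNMAT1 with the control inside 5637 rests on the library labelled 5637 sh-NC. The lines were therefore compared without it.

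NT5E and PVR had the highest deposited levels of the 9 genes in UM-UC-3 and in 5637, CD47 and CD276 came next in most libraries (in UM-UC-3 sh-LNMAT1#2 CD274, at 4.70 FPKM, was above CD276, at 3.95), PDCD1LG2 was low, LGALS9 and IDO1 were measurable mainly in the 5637 sh-LNMAT1 libraries, and VTCN1 was close to nothing. FPKM counts the sequenced fragments of a gene per kilobase of its length, scaled to the depth of the library. In UM-UC-3 sh-NC, NT5E lay above 98.7% of the 11796 genes with at least 1 FPKM, PVR above 90.2%, CD47 above 80.9% and CD276 above 24.3%. In 5637 sh-LNMAT1#1, of 12536 such genes, NT5E lay above 89.7%, PVR above 92.4%, CD276 above 81.3% and CD274 above 47.4%. The depth was 19375000 to 24707000 fragments a library, and intervals given below are 95% intervals that cover counting error only. They are exact Poisson intervals for levels and, for ratios, exact binomial intervals of the fragments on either side.

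**Figure D1:**
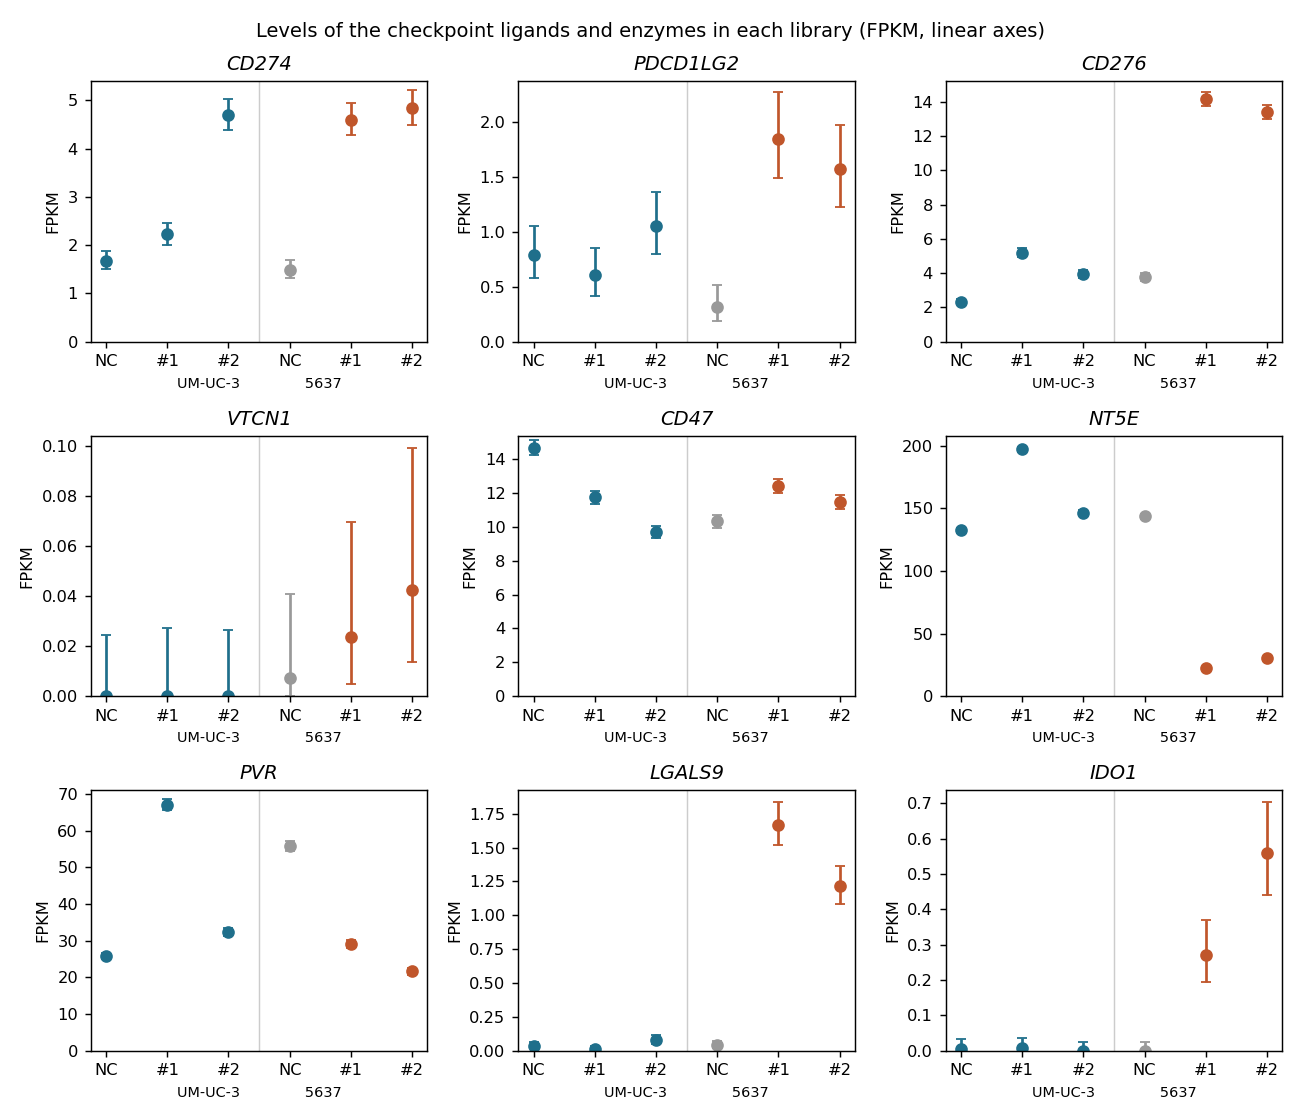
FPKM (linear axes from 0) of each of the 9 genes in the 6 libraries, UM-UC-3 at the left in blue, 5637 sh-LNMAT1 in orange and the library labelled 5637 sh-NC in grey; NC, #1 and #2 are the constructs, and bars are 95% counting intervals (for CD47 approximate). The grey point lies nearer the UM-UC-3 points than the orange ones for NT5E, LGALS9, IDO1, CD276 and PDCD1LG2, and LGALS9 and IDO1 leave the baseline only in the orange libraries.

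CD274 encodes PD-L1, the ligand of PD-1 (ENSG00000120217, GRCh38 chromosome 9, 5450503 to 5470566, 5 annotated transcripts). Its level in UM-UC-3 was 1.68 FPKM with sh-NC (1.501 to 1.87), 2.22 with sh-LNMAT1#1 (2.01 to 2.46) and 4.70 with sh-LNMAT1#2 (4.39 to 5.03). CD274 was 4.60 FPKM (4.28 to 4.95) with sh-LNMAT1#1 and 4.84 (4.50 to 5.21) with sh-LNMAT1#2 in 5637, and 1.495 (1.32 to 1.69) in the library labelled 5637 sh-NC. The sh-LNMAT1#2 library of UM-UC-3 was thus as high as the 5637 sh-LNMAT1 libraries within counting error, and the other two UM-UC-3 libraries were lower. The 2 hairpins differed in UM-UC-3 by a ratio of 2.11 (1.87 to 2.39 from counting error) and in 5637 by 1.05 (0.949 to 1.17). Between the lines, the 2 sh-LNMAT1 libraries of 5637 against the 3 UM-UC-3 libraries, the log2 difference of FPKM + 0.5 was 0.74 (standard error 0.37), and the adjusted p of limma was 0.159. Without UM-UC-3 sh-LNMAT1#2 the difference was 1.10 and the adjusted p 0.0171, so this library decides the call.

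PDCD1LG2 encodes PD-L2, the second ligand of PD-1, and begins 40003 bases after the end of CD274 (ENSG00000197646, chromosome 9, 5510570 to 5571254). It was 0.787 FPKM with sh-NC, 0.607 with sh-LNMAT1#1 and 1.05 with sh-LNMAT1#2 in UM-UC-3, which rest on 46, 32 and 57 fragments. In 5637 it was 1.85 FPKM with sh-LNMAT1#1 and 1.57 with sh-LNMAT1#2, from 91 and 72 fragments, and 0.320 in the library labelled sh-NC, from 17. The 2 sh-LNMAT1 libraries of 5637 lay above all 3 UM-UC-3 libraries. The log2 difference between the lines was 0.76 (standard error 0.21, adjusted p of limma 0.0277), which moved to an adjusted p of 0.0651 without a filter on low genes and of 0.0652 without UM-UC-3 sh-NC, so the call is not held by all settings. The mean over the 3 UM-UC-3 libraries was 0.815 FPKM, so the gene passed the filter of 1 FPKM through its 5637 values. Summed fragments were 163 in 5637 and 135 in UM-UC-3, a ratio per depth of 2.10 (1.66 to 2.66).

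CD276 (B7-H3) is a B7 family protein on many carcinomas whose receptor is not settled (ENSG00000103855, chromosome 15, 73683966 to 73714518, 19 annotated transcripts). UM-UC-3 had 2.35 FPKM with sh-NC, 5.21 with sh-LNMAT1#1 and 3.95 with sh-LNMAT1#2. In 5637 it was at 14.2 FPKM for sh-LNMAT1#1 and 13.4 for sh-LNMAT1#2, and the library labelled 5637 sh-NC had 3.77. Both 5637 sh-LNMAT1 libraries lay above every UM-UC-3 library, and the library labelled 5637 sh-NC lay inside the UM-UC-3 range. CD276 was higher in 5637 by 1.78 on the log2 scale (standard error 0.31, adjusted p of limma 0.00506), a ratio of mean FPKM of 3.60, and with the 4 sh-LNMAT1 libraries alone by 1.503 (adjusted p 0.00520). Its adjusted p was 0.0755 without 5637 sh-LNMAT1#1 and 0.0635 without 5637 sh-LNMAT1#2, where a single 5637 library is left. VTCN1 (B7-H4), another B7 family protein (ENSG00000134258, chromosome 1, 117143587 to 117210960), was listed at 0 in the 3 UM-UC-3 libraries, where the floor of 3 fragments is 0.02002 to 0.0222 FPKM. It was 0.0238 and 0.0425 FPKM in the 5637 sh-LNMAT1 libraries, from 3 and 5 fragments, and 0.00735 FPKM in the library labelled 5637 sh-NC, from 1, so no level is given beyond this count.

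CD47 is the signal that binds SIRPA on macrophages and holds back phagocytosis (ENSG00000196776, chromosome 3, 108043298 to 108091025). Its levels were close in all libraries, at 14.7 FPKM with sh-NC, 11.7 with sh-LNMAT1#1 and 9.70 with sh-LNMAT1#2 in UM-UC-3, and at 12.4 with sh-LNMAT1#1 and 11.5 with sh-LNMAT1#2 in 5637. The library labelled 5637 sh-NC had 10.3 FPKM. The 2 groups of libraries overlapped, and the log2 difference between the lines was 0.01 (standard error 0.22, adjusted p of limma 0.985). SIRPA was the 1 of 13 checkpoint receptors at 1 FPKM or more, at 3.94 and 4.66 FPKM in the 5637 sh-LNMAT1 libraries and 8.602 to 12.8 FPKM in the other four.

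PVR (CD155) is bound by TIGIT and by the activating receptor CD226 on T cells and natural killer cells (ENSG00000073008, chromosome 19, 44643798 to 44663583). It was 25.8 FPKM with sh-NC, 67.1 with sh-LNMAT1#1 and 32.4 with sh-LNMAT1#2 in UM-UC-3. It was 29.01 and 21.7 FPKM with sh-LNMAT1#1 and sh-LNMAT1#2 in 5637, and 55.8 in the library labelled 5637 sh-NC. The UM-UC-3 sh-LNMAT1#1 library and the library labelled 5637 sh-NC stood above the other four, and the lines overlapped. The log2 difference between the lines was -0.60 (standard error 0.41, adjusted p of limma 0.277), and in the 4 sh-LNMAT1 libraries alone it was -0.88 (adjusted p 0.127). With the hairpin as a block, which leaves 1 residual degree of freedom, the adjusted p of the latter was 0.0271. PVR overlaps other annotated genes, and whether the counting used strand is not given in the sources used here, so reads of these genes may be included.

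LGALS9 encodes galectin-9, a lectin that binds TIM-3 (ENSG00000168961, chromosome 17, 27629798 to 27649560). It was 0.0354, 0.0107 and 0.0762 FPKM in UM-UC-3 with sh-NC, hairpin sh-LNMAT1#1 and hairpin sh-LNMAT1#2, from 11, 3 and 22 fragments. In 5637 it was 1.67 FPKM with sh-LNMAT1#1 and 1.22 with sh-LNMAT1#2, from 437 and 297 fragments, and 0.0425 FPKM, from 12, in the library labelled 5637 sh-NC. The 5637 sh-LNMAT1 libraries lay far above the others, with a ratio of summed fragments per depth of 35.5 (25.4 to 51.1) over UM-UC-3. Its mean over the 5 libraries was under the filter of 1 FPKM, and in the fit without a filter the log2 difference of FPKM + 0.5 was 1.84 (standard error 0.18, adjusted p of limma 0.00344). Copies of the gene, LGALS9B and LGALS9C, can share reads with it, so the level is uncertain. LGALS9B was 0.194 and 0.167 FPKM in the 5637 sh-LNMAT1 libraries and at most 0.0235 FPKM in the others.

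The last 2 members are enzymes. NT5E (CD73) is an ectoenzyme that turns AMP into adenosine, which restrains T cells (ENSG00000135318, chromosome 6, 85449584 to 85495791). It was 132.4 FPKM with sh-NC, 197.3 with sh-LNMAT1#1 and 146.7 with sh-LNMAT1#2 in UM-UC-3, and 22.8 and 30.4 FPKM with sh-LNMAT1#1 and sh-LNMAT1#2 in 5637. The library labelled 5637 sh-NC had 143.7 FPKM, inside the UM-UC-3 range, and the 5637 sh-LNMAT1 libraries lay below all the others. The log2 difference between the lines was -2.55 (standard error 0.24, adjusted p of limma 3.66e-04), a ratio of mean FPKM of 0.168, and the adjusted p stayed under 0.05 in each setting tried that leaves out the library labelled 5637 sh-NC. IDO1 encodes an enzyme that breaks down tryptophan and is induced by interferon gamma (ENSG00000131203, chromosome 8, 39902275 to 39928444). It was 0.272 and 0.561 FPKM in the 5637 sh-LNMAT1 libraries, from 39 and 75 fragments, and rested on 1, 1 and 0 fragments in the UM-UC-3 libraries and 0 in the library labelled 5637 sh-NC. The summed fragments gave a ratio per depth of 99.2 (26.8 to 829), and the fit without a filter a log2 difference of 0.84 (adjusted p of limma 0.0181), which the added 0.5 FPKM understates.

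Of the 9 members, 6 passed the filter of a mean of 1 FPKM in the comparison of the lines, and VTCN1, LGALS9 and IDO1 did not. CD276 was called higher in 5637 and NT5E lower, and PDCD1LG2, also called higher, passed the filter through the 5637 libraries where it is high, so its call lends no support to a count. Over all 12748 genes tested, 21.3% were called higher and 21.6% lower, and nothing particular to the members is read from 2 higher and 1 lower of 6. The members' median log2 difference was 0.37, beside -0.04 over all genes tested. The libraries of the 2 lines did not overlap for 66.0% of those genes. Line, medium and the share of control libraries differ together in this comparison and cannot be told apart, and neither can fewer expressing cells and less RNA per cell.

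**Figure D2:**
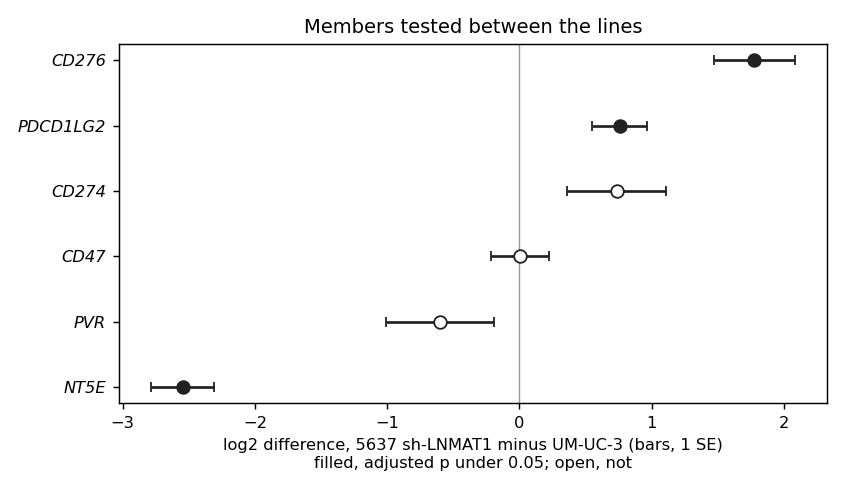
Log2 difference of FPKM + 0.5, the mean of both 5637 sh-LNMAT1 libraries minus that of the 3 UM-UC-3 libraries, for the 6 members that passed the filter; points are limma estimates, bars 1 standard error, and filled points have an adjusted p under 0.05. CD276 stands at 1.78 and NT5E at -2.55, and CD47 at 0.01.

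Within UM-UC-3, no member that passed the filter was moved 2-fold or more one way by both hairpins against LNMAT1. CD276 was higher than in sh-NC with both, by 1.00 on the log2 scale with sh-LNMAT1#1 and 0.64 with sh-LNMAT1#2. PVR was higher by 1.36 with sh-LNMAT1#1 and 0.32 with sh-LNMAT1#2, and CD274 by 0.32 and 1.25. So each of these 3 reached 2-fold with 1 hairpin, CD274 with sh-LNMAT1#2 and the other two with sh-LNMAT1#1, and no value was past 2-fold with both. NT5E was higher by 0.57 and 0.15, and CD47 lower, with log2 differences of -0.31 and -0.57. PDCD1LG2, whose mean of the 3 libraries was under 1 FPKM, differed by -0.22 and 0.27. Of the 12025 genes kept in UM-UC-3, 1.44% passed 2-fold with both hairpins, beside 0 of 5 members. The median log2 difference was 0.79 over the 5 members and 0.002 over all genes kept, and nothing particular to the members is read from 5 genes. These are single libraries, so the differences have no replicate check.

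Inside 5637, all differences are against the library labelled 5637 sh-NC. CD276 was higher by 1.78 and 1.70 with sh-LNMAT1#1 and sh-LNMAT1#2, PDCD1LG2 by 1.52 and 1.34, and CD274 by 1.36 and 1.42. NT5E was lower, with log2 differences of -2.63 and -2.22, and PVR stood at -0.93 and -1.34. Thus 3 members were higher and 1 lower at 2-fold with both hairpins of 6 kept, beside 30.7% of 12791 genes. PDCD1LG2, among the 3, passed the filter of 1 FPKM through the sh-LNMAT1 libraries where it is high, so it lends no support to this count. CD47 was higher by 0.25 and 0.15.

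The effect of the hairpins against LNMAT1 was then fitted with limma on libraries of both lines. When the library labelled 5637 sh-NC is left out, 5637 has no control. The difference is then that of UM-UC-3 alone, the mean of its 2 hairpin differences given above, and 5637 adds to the spread only. Without the library labelled 5637 sh-NC, CD276 had a log2 difference of 0.82 (standard error 0.27), PVR of 0.84 (0.47) and CD274 of 0.79 (0.42), and none passed, with adjusted p of 0.804, 0.846 and 0.846. NT5E had 0.36, CD47 -0.44 and PDCD1LG2 0.03. In that fit 0 of the 12748 genes were called (0.0%) and 773 had an unadjusted p under 0.05, CD276 among the members. A fit of recovered fragments by limma's voom called 0 as well. With the library labelled 5637 sh-NC and the line as a covariate, CD276 had 1.28 (standard error 0.29) and CD274 1.09 (0.34), both with an adjusted p of 0.569. Of the 12717 genes, 0.0% were called in it, 811 had an unadjusted p under 0.05, and voom called 0. NT5E had -1.03, with opposite directions in the 2 lines. Without UM-UC-3 sh-NC, which leaves the library labelled 5637 sh-NC as the 1 control, CD276, PDCD1LG2 and NT5E passed, beside 31.4% of the 12822 genes tested in that fit, and this control is the library that resembles UM-UC-3.

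The difference of the 2 lines in their response was tested as an interaction of line and hairpin. NT5E passed it, with -2.79 on the log2 scale (standard error 0.43, adjusted p of limma 0.0140), and the 18.8% of 12717 genes called in either direction give the background to that 1 of 6 members. PDCD1LG2 had 1.40 (adjusted p 0.0776) and PVR -1.98 (0.0948). This test has 1 control library in each line, so its p rests on the spread between the 2 hairpins within each line. It uses the library labelled 5637 sh-NC as the control of 5637, and its NT5E value of 143.7 FPKM lies among those of UM-UC-3.

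A wider list of 48 checkpoint genes, chosen with earlier results known, had 27 genes that passed the filter between the lines, of which 10 were higher and 8 lower in 5637 by limma, beside 21.3% higher and 21.6% lower over all genes tested. Some passed the filter through 1 line only. LGALS1, a galectin, was 11.3 and 29.8 FPKM in the 5637 sh-LNMAT1 libraries and 251.1 to 307.9 in UM-UC-3, a log2 difference of -3.86 (standard error 0.39). CD70, the ligand of CD27, differed by -3.38 (0.36) and NCR3LG1 (B7-H6), the ligand of NKp30, by -2.65 (0.33). THBS1, which also binds CD47, was 44.1 and 69.1 FPKM in 5637 and at most 0.293 in UM-UC-3, a difference of 6.33 (0.26). AHR, a receptor for tryptophan products, differed by 4.94 (0.20) and CD24 by 3.43 (0.61). THBS1 and AHR passed the filter through the 5637 libraries and CD70 through those of UM-UC-3, so these differences are given as a description. Against the library labelled 5637 sh-NC, 7 of 27 kept genes of this list were higher and 7 lower 2-fold with both hairpins, and of 39 kept regulators of CD274 9 were higher and 3 lower, beside 30.7% of all genes in either direction. In UM-UC-3 none of the 24 genes of this list that were kept, and none of the 38 regulators of CD274 below, changed 2-fold with both hairpins.

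Among 40 regulators of CD274, all tested between the lines, 10 were higher and 5 lower in 5637 sh-LNMAT1, beside 21.3% and 21.6% of all genes tested. Of those furthest lower, IRF9, a factor of the interferon response, was 1.77 and 1.68 FPKM in the 5637 sh-LNMAT1 libraries and 8.92 to 15.8 in UM-UC-3, a log2 difference of -2.57 (standard error 0.28, adjusted p of limma 6.59e-04). JAK2, a kinase of the interferon gamma receptor, differed by -1.48 (0.21, adjusted p 0.00209). B3GNT3, a glycosyltransferase that modifies PD-L1, was 4.84 and 6.02 FPKM in 5637 and 0 to 0.0105 in UM-UC-3. HIF1A, the hypoxia factor, was 100.9 and 109.2 FPKM in 5637 and 38.4 to 46.6 in UM-UC-3. So IRF9 and JAK2 were lower in the libraries where CD274 read 4.60 and 4.84 FPKM.

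The 8 kept genes within 500000 bases of CD274 or PDCD1LG2, of 34 annotated rows there, had log2 differences of both signs between the lines. JAK2 and PLGRKT, a plasminogen receptor, were lower in 5637 by -1.48 and -1.05. The lower coordinates of their spans lie 466 kb and 92.5 kb before the CD274 start. PLGRKT runs from 5357973 to 5437878, so its other end is nearer to CD274, which starts at 5450503. PDCD1LG2 was higher, and RIC1, ERMP1, KIAA2026 and RANBP6 had log2 differences between -0.59 and 0.49 with adjusted p of 0.0752 or more. The 8 include CD274 and PDCD1LG2 themselves. Of the 8, 2 were called lower and 1 higher, beside 21.6% and 21.3% of all genes tested. The 1 called higher was PDCD1LG2, which passed the filter through its 5637 values, so its call lends no support to a count.

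For each kept member, the named genes whose centred log2 profiles over the 6 libraries lay closest, up to 3, were found by Euclidean distance, as a description. For CD274 they were ATP8B1, LINC00638 and NRM, for PDCD1LG2 NMRAL1, TFDP1 and MYO19, for CD276 BDH2, FGFRL1 and SLC25A25, for CD47 RELA, CDC5L and KIAA1109, for NT5E GRB10, LRRC3 and EN2, and for PVR C8orf44 and STX12. The closest was NMRAL1 to PDCD1LG2, at a distance of 0.107 on the log2 scale. ATP8B1 stood at 0.371 from CD274, and like it had a UM-UC-3 sh-LNMAT1#2 value (7.83 FPKM) near those of 5637 sh-LNMAT1 (8.82 and 8.59).

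The order of the members' levels depends on the length used. The deposited FPKM were found to divide by the sum of all distinct exons of a gene, overlapping exons each counted, with 85.6% to 86.3% of values of genes with several transcripts coming out as whole fragments within 0.05, against 9.83% to 10.5% with merged exons. The length was 1.47 times the merged one at the median. For CD276 it was 14753 against 5542 bases, for CD274 7810 against 4108, and for PDCD1LG2, which has 1 transcript, 2365 in both. In 5637 sh-LNMAT1#1, CD276 was 14.2 FPKM as deposited and 37.7 by merged exons, NT5E 22.8 and 36.8, and PVR 29.01 and 39.5. So CD276, below both on the deposited scale, was near both on the other. The ratio of the FPKM of one gene between libraries is not touched by this length, but the filter and the log2 of FPKM + 0.5 are. LGALS9 averaged 0.602 FPKM as deposited over the 5 libraries without the one labelled 5637 sh-NC, and 1.33 by merged exons, which would pass the filter of 1 FPKM.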

How the data were processed

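RNA of 6 cell cultures was sequenced from a stranded mRNA library kit. For each gene the authors deposited the FPKM, which scales fragments to gene length and depth, in a table that has 50869 rows. A row without values was left out. The submitters' processing notes name HISAT2 and hg38, and the counting program and annotation are not given in the sources used here. Samples were grouped by their titles, and members were matched by gene name.

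Python 3.11.15 (numpy 2.4.6, pandas 2.3.3, matplotlib 3.10.9) and limma 3.58.1 (R 4.3.3) worked on log2(FPKM + 0.5), with genes of a mean of at least 1 FPKM kept, a trend in eBayes, and Benjamini-Hochberg adjustment over all genes tested (calls at 0.05). Inside a line, a gene counted at 2-fold or more with both hairpins, with no test. Depth was recovered from single-exon genes, and fragments of 46587 genes (91.6%) came out whole in all libraries with GENCODE release 29 lengths. CD47 did not, and its fragments are approximate. Floors are 3 fragments. The limma steps were tested on simulated data. Named genes were the 9 members, in the wider checkpoint and CD274 regulator lists the 3 largest differences between the lines in each direction and every gene at 2-fold with both hairpins in UM-UC-3, the 3 closest profiles per member, the neighbours within 500000 bases, and LINC01296. Some genes that this rule selects are not reported here. Members and lists were chosen with earlier results of these data known. Alternatives were 75th-percentile and TPM scaling, pseudocounts of 0.1 and 1, no filter and 5 FPKM, limits of 1.5-fold or 3-fold, a single hairpin, no trend, no covariate, libraries left out, and, chosen after seeing the data, voom on recovered fragments and lengths of merged exons.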

Additional observations from a re-analysis of the deposited data

Results flagged for a closer look

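For 3 members the difference from sh-NC had 1 sign for both hairpins in UM-UC-3 but the opposite sign for both in 5637. NT5E was the 1 of them whose difference between the lines passed the interaction test, at -2.7852 (adjusted p of limma 0.0140). PVR had -1.9797 (adjusted p 0.0948) and CD47 0.6414 (adjusted p 0.245), which did not pass. All 3 use the library labelled 5637 sh-NC as the control of 5637, which correlated with UM-UC-3 libraries at r of at least 0.922 and with 5637 libraries at no more than 0.622 across genes. Its part in these results was not tested.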

How the results depend on the processing

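No called result changed sign. Between the lines, 2 members were called higher and 1 lower, and 1 higher with a filter of 5 FPKM or the sh-LNMAT1 libraries alone. With no filter, 3 of 9 were called higher (CD276, LGALS9 and IDO1) and 1 lower (NT5E), beside 4634 higher and 3024 lower of 36180 genes. LGALS9 and IDO1 are high in the 5637 sh-LNMAT1 libraries only, so their calls lend no support to a count. With 6 libraries by their labels there were 0 higher and 0 lower. The hairpin number as a replicate block gave 1 higher and 2 lower (CD276, and NT5E and PVR). That block was fitted on the sh-LNMAT1 libraries, where the lines share each hairpin but the labels name no shared culture or day. Leaving out 1 library gave 0 to 3 higher and 1 lower. In UM-UC-3, 0 members were higher and the 1.5-fold threshold gave 1 (CD276), while each hairpin alone gave 1 to 2. In 5637, 3 higher and 1 lower became 2 lower with 75th-percentile scaling or 1.5-fold (PVR added), 1 higher with 5 FPKM or 3-fold, 2 with a pseudocount of 1 and 4 with no filter (LGALS9 added), and each hairpin alone gave 3 higher and 1 to 2 lower. The interaction's 1 lower (NT5E) became 0 without a filter (adjusted p of limma 0.0751), and 0 to 2 lower and 0 to 1 higher without 1 library. The pooled comparison's 0 moved only without UM-UC-3 sh-NC, where the library labelled 5637 sh-NC is the 1 control, so no count is given for it. Beside these counts, 24 member values without a test moved, 14 lost a call, 7 gained one, 11 changed sign without being called and 387 did none of these. CD47 between the lines, 0.01 on the log2 scale, was -0.060 with 6 libraries by their labels, -0.022 with 75th-percentile scaling and -0.13 to 0.15 on leaving out 1 library. In the pooled comparison, leaving out 1 library gave PVR -1.14 to 0.84, NT5E -2.42 to 0.36 and CD47 -0.44 to 0.20, and the positive values of PVR (0.84) and NT5E came without the library labelled 5637 sh-NC. PDCD1LG2 in the knockdown fit without that library was -0.027 with TPM scaling and -0.22 to 0.27 on leaving out 1 more. Depth limits VTCN1, IDO1 and LGALS9 in UM-UC-3, and 1 library a construct limits every comparison inside a line. The causes of these changes were not tested.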
